A study of Mus musculus with 23 samples.

Results

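The cytosolic ribosomal protein genes were followed across cultures of mouse pancreatic ductal adenocarcinoma cells. Members were taken by symbol: Rpl or Rps with a number and at most one of the letters a, x or y, plus Rplp0, Rplp1, Rplp2 and Rpsa, without pseudogene entries and with a mean of at least 10 counts per library. The rule gave 76 of the 27207 genes in the table, 46 of the large and 30 of the small subunit, and all 76 also passed the filter on low counts. The 23 libraries held 6 KC cultures in 2D, 3 KC organoid cultures in Matrigel at day 13, 3 in collagen at day 7, 5 in collagen at day 13, all of batch 1, and 3 KC and 3 KPC organoid cultures in collagen at day 13 of batch 2. KC cells, of the KC genotype with Ptf1a-Cre, came from 1 mouse, so they stand for 1 line in every KC group. KPC cells, of the KPC genotype with Pdx1-Cre, came from 1 other mouse, so that the genotype, the Cre driver and the line cannot be told apart. Replicates are cultures of 1 line, and p-values measure the spread between such cultures. Each gene's spread was estimated over all 6 groups at once. The difference between sets of 2D libraries, given below, therefore also enters the p-values of comparisons without 2D cells.

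Ribosomal proteins assemble with ribosomal RNA into the large and small subunits of the cytosolic ribosome, and their genes are among the most strongly expressed in growing cells. Most of their mRNAs begin with a terminal oligopyrimidine tract, a C followed by a run of pyrimidines, through which translation is tied to mTOR signalling. The extra-ribosomal roles of single members are named below where each is described.

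The start of the mRNA is therefore shown for members on which the comparisons turned, 50 bases of the RefSeq promoter table of build GRCm38.p6, read along the gene's strand from 30 bases before the annotated start. Capitals mark the longest unbroken run of at least 5 C or T letters that reaches within 5 bases of that start. Rps2 and Rpl12 had the largest day 7 differences, Rpl34 and Rps24 were among the largest in 2D, Rps6, Rpl35 and Rpl35a had the largest decreases in batch 2 and Rps10 the largest increase, and Rplp2 belongs to the ribosomal stalk.
Rps2 (chr17:24720033-24720082, plus strand): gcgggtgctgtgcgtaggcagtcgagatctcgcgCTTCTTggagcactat
Rpl12 (chr2:32961682-32961731, plus strand): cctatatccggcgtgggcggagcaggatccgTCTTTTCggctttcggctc
Rpl34 (chr3:130730318-130730367, minus strand): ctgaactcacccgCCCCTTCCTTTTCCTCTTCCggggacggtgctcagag
Rpl34, other annotated start (chr3:130730379-130730428, minus strand): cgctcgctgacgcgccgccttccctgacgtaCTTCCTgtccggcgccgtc
Rps24 (chr14:24490648-24490697, plus strand): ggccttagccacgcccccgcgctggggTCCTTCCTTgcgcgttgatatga
Rps6 (chr4:86857348-86857397, minus strand): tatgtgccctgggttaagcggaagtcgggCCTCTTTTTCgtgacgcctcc
Rpl35 (chr2:39005112-39005161, minus strand): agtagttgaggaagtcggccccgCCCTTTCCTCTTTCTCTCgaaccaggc
Rpl35a (chr16:33056452-33056501, plus strand): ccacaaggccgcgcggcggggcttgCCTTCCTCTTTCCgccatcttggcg
Rps10 (chr17:27635225-27635274, minus strand): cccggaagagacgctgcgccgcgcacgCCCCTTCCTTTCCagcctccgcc
Rplp2 (chr7:141447621-141447670, plus strand): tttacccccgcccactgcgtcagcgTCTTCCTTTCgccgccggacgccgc

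The table held 56 of the 76 members, in 66 windows. Such a run, sought on the gene's strand only, was present in 34 of these windows, 51.5%, and in 32.8% of the 32775 windows of other genes. A match is a description of the letters and depends on where the annotation places the start.

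Counts are unique molecular identifiers (UMIs), 1 per captured 3' end, so a gene's count does not grow with the length of its mRNA and shares of counts are compared between genes without a length correction. Total counts ran from 1221451 to 2471058 per library. Members took between 6.23% and 22.2% of the counts of a library, and the 95% Wilson interval of a share was at most 0.146 percentage points wide, which covers counting error only. The pseudogene entries of members, 262 in number, added between 0.957 and 1.22 counts per 100 counts of members. The 6 epithelial markers summed to at least 7016 CPM in every group, and the endothelial markers reached no more than 3 counts in any. Fewer cells of a type and less RNA per cell cannot be told apart in bulk samples.

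Within the members, the counts were spread widely. Among the highest, Rps18 held 3.68% of the members' counts on average over libraries, Rpl32 3.55%, Rps14 3.46% and Rps26 3.43%. At the other end, Rpl13a held 0.25%, Rps6 0.233%, Rpl27a 0.222%, Rpl15 0.183% and Rpl24 0.0102%. Rpl24 was counted between 6 and 37 times per library and shares exons on the same strand with the entry Gm28037, so its level is uncertain. Same-strand overlaps of this kind existed for 5 members, and opposite-strand overlaps alone for 12. The ratio of large to small subunit counts stayed between 0.971 and 1.21 in all 23 libraries.

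The share of counts set the groups in order. The 2D libraries fell into sets that the titles end with 14A to 14C and 14D to 14F, with members at 21.7%, 21.3% and 22.2% in the former and at 12.1%, 11.8% and 12.9% in the latter. Collagen organoids at day 7 stood at 11.9%, 10.9% and 11.3%. At day 13 the batch 1 collagen organoids stood at 8.91%, 9.4%, 9.28%, 7.77% and 7.23%, and Matrigel organoids at 8.66%, 8.06% and 9.92%. In batch 2 the KC organoids stood at 7.01%, 6.4% and 6.23% and the KPC organoids at 8.52%, 7.66% and 8.01%. The 14D to 14F and day 7 libraries overlapped, as did Matrigel and day 13 collagen of batch 1. Day 7 lay above every day 13 library, KPC above KC of batch 2, and KC of batch 2 below KC of batch 1. The mean share at day 7 was 1.33 times that of day 13 in batch 1, and that of KPC 1.23 times that of KC.

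**Figure D1:**
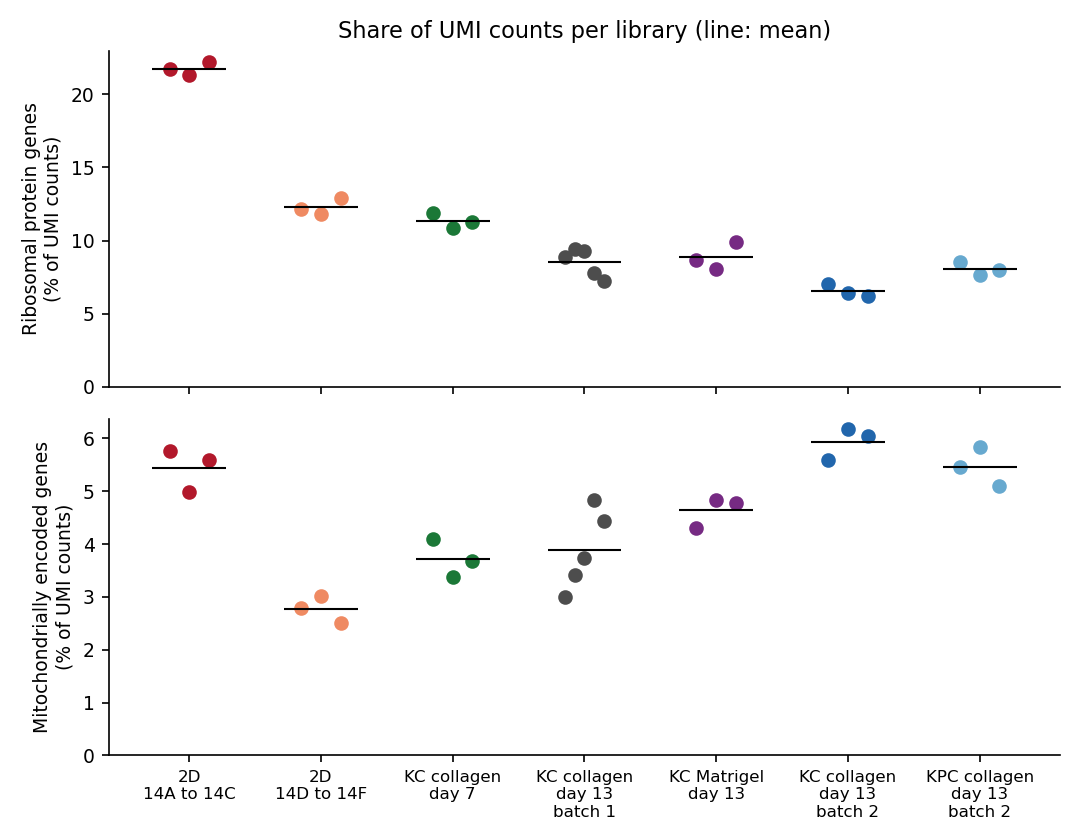
Share of UMI counts (%) on the 76 ribosomal protein genes (top) and on mitochondrially encoded genes (bottom), 1 point per library and a line at the mean of each set of libraries. The 2D libraries 14A to 14C sit above 21% and all organoid libraries below 12% for the ribosomal protein genes.

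The 2D sets differed in more than the members. The 14A to 14C libraries were shallower, between 1221451 and 1382736 counts against 1649327 to 2091391, and their mitochondrially encoded share was 4.99% to 5.75% against 2.51% to 3.01%. The 7 fibroblast markers summed to between 131 and 187 CPM in 14A to 14C and to between 61.5 and 78.1 CPM in 14D to 14F, and the 6 epithelial markers to between 7016 and 7185 CPM against 9485 to 9989 CPM. Genes other than members also differed by mRNA length: the median difference in log2 CPM, 14A to 14C minus 14D to 14F, was 1.30 for the 241 genes with mRNAs of up to 500 nt and -0.26 for the 3362 over 4000 nt. Members differed by a median of 1.004 in log2 CPM, from -0.32 for Rpl29 to 2.67 for Rps24, and their difference followed length only weakly (Spearman's rho -0.14 across 76 genes, which are not independent replicates). Lengths here and below are those of the annotated principal transcript, the longest where several ranked equally, and the transcripts in use were not measured. CPM here is scaled by the TMM factors of edgeR. The part of library quality in the difference was not tested, and the counts of members in the comparisons with 2D cells are therefore given for both sets.

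Members that differed most between the 2D sets were Rps24, Rpl35a, Rpl35 and Rpl34. Rps24, a small subunit protein, stood at 17977, 10380 and 16659 CPM in 14A to 14C and at 1904, 2071 and 3049 CPM in 14D to 14F. Rpl17 stood at 13978, 15119 and 17403 CPM against 3125, 2923 and 3685 CPM. Neither gene's sets overlapped. By contrast Rps2 stood at 1945, 1912 and 2032 CPM against 2164, 2233 and 2058 CPM, and Rpl21 at 905, 891 and 894 CPM against 878, 849 and 880 CPM.

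**Figure D2:**
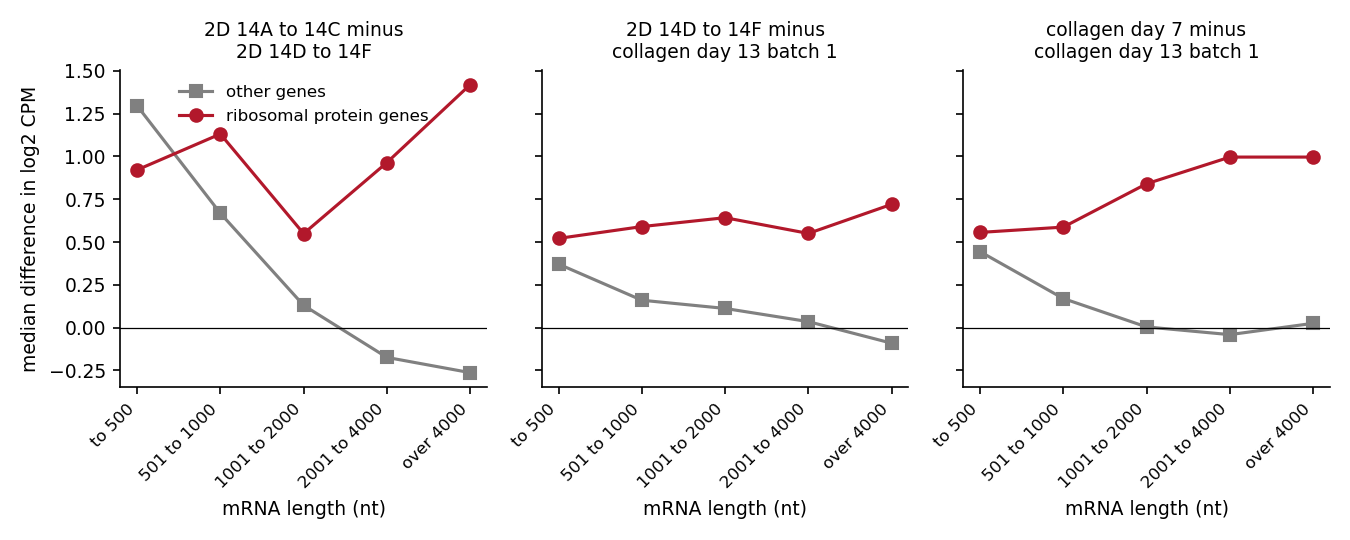
Median difference in log2 CPM by class of annotated mRNA length (nt) for ribosomal protein genes (red) and other tested genes (grey), in 3 contrasts. The class above 4000 nt holds 1 member. Other genes fall from 1.30 to -0.26 between the 2D sets, while members lie above them there in all classes but the shortest, and run from 0.52 to 0.72 in the middle contrast.

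Compared with day 13 collagen organoids of batch 1, the 2D cells had higher levels of nearly all members. By edgeR's quasi-likelihood test with a Benjamini-Hochberg adjusted p under 0.1, 73 of 76 members rose and 0 fell, beside 26.3% of all 11144 tested genes that were higher and 23.3% that were lower. The median log2 fold change was 1.15, with an interquartile range of 0.84 to 1.58. Rpl28, Rpl30 and Rps26 did not pass, at 0.21, 0.06 and 0.38. Rpl30 had 1 high library at day 13, at 287, 816, 364, 250 and 210 CPM against 358 to 448 CPM in 2D. Without that day 13 library, replicate 2, 74 members rose (24.8% of tested genes higher). With 14A to 14C alone, 73 members rose (26.8% of tested genes were higher) at a median of 1.56. With 14D to 14F alone, 64 rose and 0 fell (18.9% higher) at a median of 0.56, and the interquartile range of the difference in mean log2 CPM was 0.49 to 0.68, a narrow shift across members.

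The largest differences were in Rpl35, Rpl41 and Rpl34. Rpl41, which encodes a very short protein of the large subunit, stood at 9655, 11946 and 12262 CPM in 14A to 14C, at 2251, 2063 and 2328 CPM in 14D to 14F, and between 1251 and 1528 CPM at day 13 (log2 fold change 2.29, SE 0.377, adjusted p = 3.32e-05, edgeR). Of the genes chosen by role, Rps6, the substrate of S6 kinase, stood at 463, 532 and 622 CPM, at 442, 442 and 390 CPM and between 187 and 281 CPM at day 13, so that all 2D libraries lay above day 13 (1.10, SE 0.12, adjusted p = 1.04e-07). Rplp0, Rplp1 and Rplp2 of the stalk, where translation factors dock, rose by 1.10, 0.84 and 1.01 on the log2 scale. Their differences in mean log2 CPM from day 13 were 1.40, 1.11 and 1.30 with 14A to 14C and 0.76, 0.53 and 0.67 with 14D to 14F. Rpl5 and Rpl11, which with 5S ribosomal RNA can bind Mdm2, rose by 1.70 and 1.04, and their differences in mean log2 CPM were 2.33 and 1.39 with 14A to 14C and 0.55 and 0.59 with 14D to 14F.

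With the trend of mRNA length removed in each library, an alternative chosen after seeing the data, the median fell to 0.63. The cycling markers Mki67, Top2a, Cdk1 and Ccnb1 summed to between 231 and 265 CPM in 14A to 14C. They summed to between 345 and 359 CPM in 14D to 14F and to between 167 and 243 CPM at day 13. Their part in the result was not tested. The 2D cells went into lysis buffer directly and organoids only after collagenase had dissolved the matrix, so culture and handling cannot be told apart.

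Compared with day 7 collagen organoids, the outcome for 2D cells depended on the set of libraries. With all 6, 42 members rose and 3 fell (26.4% of tested genes higher, 24.8% lower) at a median log2 fold change of 0.63. With 14A to 14C alone 63 rose and 3 fell (28.3% and 29.1% of tested genes), and with 14D to 14F alone 13 rose and 19 fell (23.9% and 22.4%), with a median of -0.02. Rpl17 was the most different member, at 2191, 1989 and 1834 CPM at day 7 and so below every 2D library (2.22, SE 0.44, adjusted p = 0.000267, edgeR). Rps24 and Rpl34 followed at 2.15 and 1.82, and both lost their calls with 14D to 14F alone. Rps27a, made as a fusion with ubiquitin, Rps3, Rpl41 and Rps25 were called higher with all 6 libraries and had log2 fold changes of -0.33, -0.05, -0.04 and -0.17 with 14D to 14F alone. The 3 that fell were Rps2, Rpl7a and Rpl21, by 0.61, 0.34 and 0.28 on the log2 scale. Rps4x rose with either set of 2D libraries, at 4929, 3871 and 4411 CPM and 4523, 3879 and 4524 CPM in 2D against 2989, 2482 and 2286 CPM at day 7 (0.75, SE 0.162, adjusted p = 0.000596). With all 6 libraries the median was 0.18 after removal of the length trend and 0.34 with library size alone as the scaling.

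**Figure D3:**
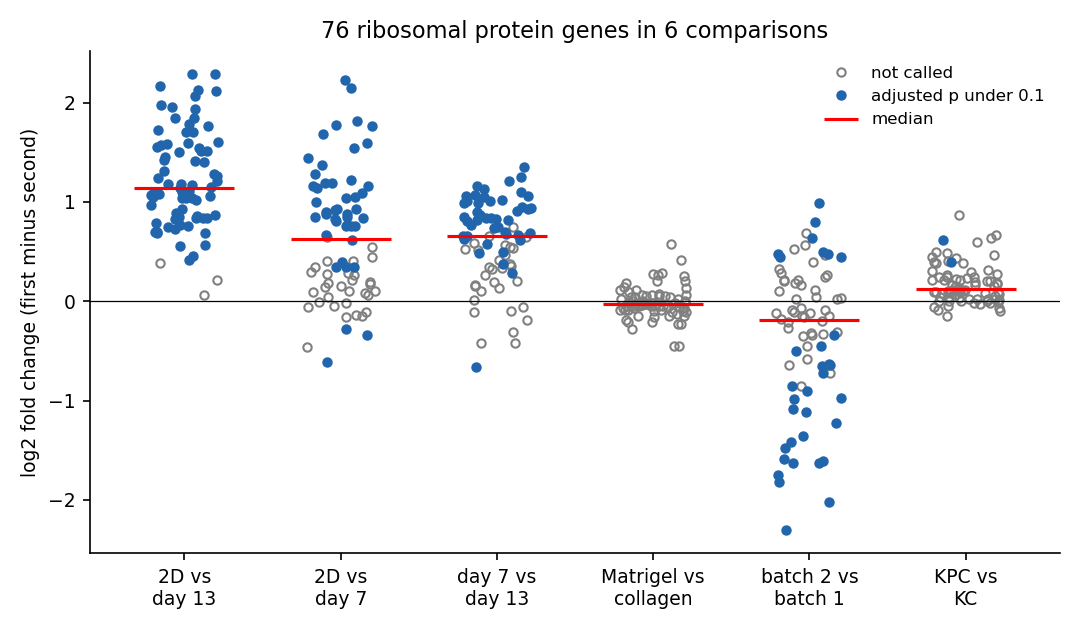
Log2 fold change of each of the 76 members in the 6 comparisons, the first group minus the second; filled points passed an adjusted p under 0.1 and red lines are medians. Almost all members lie above 0 for 2D and day 7 against day 13, the points centre on 0 for Matrigel, and batch 2 spreads from -2.31 to 0.99.

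Between day 7, in the extension phase, and day 13, when lumens form, members were higher at day 7 in collagen. In all, 44 of 76 rose and 1 fell (28.1% of tested genes higher, 27.1% lower), 28 of the large and 16 of the small subunit. The median log2 fold change was 0.65, a fold of 1.57, and it was 0.66 for the large and 0.64 for the small subunit. Over all members it was 0.46 after removal of the length trend and 0.39 with the replicate number as a block. Rps2 stood at 3283, 2851 and 3279 CPM at day 7 and at 1518, 1280, 1289, 1076 and 966 CPM at day 13 (1.36, SE 0.135, adjusted p = 9.09e-09, edgeR). Rpl12, of the base of the stalk, stood at 895, 834 and 891 CPM against 370, 390, 382, 360 and 335 CPM (1.25, SE 0.281, adjusted p = 0.000661). The groups did not overlap for either gene.

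The stalk proteins rose together, Rplp0 by 0.83, Rplp1 by 0.98 and Rplp2 by 0.86 on the log2 scale. Rpsa, also known as a laminin receptor, rose by 1.16, Rpl22 by 1.10, Rpl5 by 1.05, Rps6 by 0.91 and Rpl11 by 0.77. The call of Rps3 (0.68, adjusted p = 0.0989) did not hold under 14 alternatives. Rpl28 was the member that fell, at 760, 890 and 658 CPM against 771, 1799, 1770, 687 and 1068 CPM, with overlapping groups (-0.66, adjusted p = 0.0854), and the call was lost without day 7 replicate 1 or 3 or day 13 replicate 2 or 3. Leaving out single libraries left between 36 and 42 members higher (23.6% to 27.2% of tested genes higher). Without the 2D libraries in the fit, 60 rose and 2 fell (30.5% of tested genes higher, 31% lower). With 2D as 2 groups, 62 rose and 1 fell (32% and 30.1%). By mRNA length, the median difference in log2 CPM was 0.56 for the 10 members of up to 500 nt, beside 0.44 for other genes of that length. It was 0.59 for the 38 members between 500 and 1000 nt, beside 0.17, and 0.84 for the 23 between 1000 and 2000 nt, beside 0.004. These lengths are annotated. If members such as Rps3, placed at 1908 nt, used shorter transcripts, they stand beside genes with longer mRNAs. Cycling markers summed to between 532 and 669 CPM at day 7 and to between 167 and 243 CPM at day 13, and their part in the result was not tested.

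**Figure D4:**
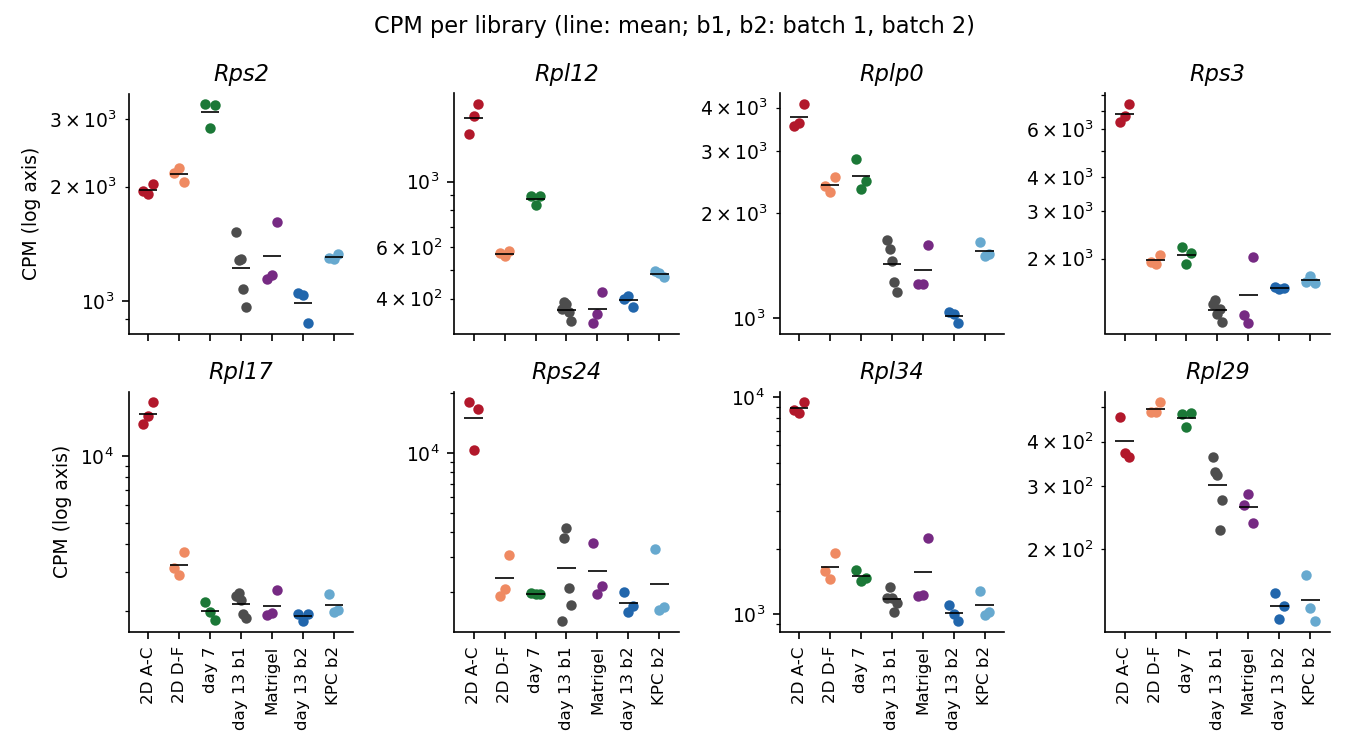
CPM (log axis) of 8 members in every library, with a line at each mean. Rps2, Rpl12 and Rplp0 are higher at day 7 than at day 13; Rpl17, Rps24 and Rpl34 stand out in 2D libraries 14A to 14C, where Rpl29 does not.

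Matrigel and collagen organoids at day 13 gave no member that passed, 0 higher and 0 lower by edgeR, against 6.62% and 6.29% of tested genes. At an unadjusted p under 0.05 there was 1 member, without a share of all tested genes to set beside it. DESeq2 called 0 higher and 1 lower, against 4.98% and 4.86% of tested genes. The median log2 fold change was -0.03, and 28 of 76 members were above 0. The highest and the lowest values, chosen after they were seen, were those of Rpl31 at 0.57 (SE 0.394) and Rps15 at -0.45 (SE 0.274). Rpl31 rested on 1 library: it stood at 492, 614 and 1624 CPM in Matrigel and between 559 and 746 CPM in collagen, and its log2 fold change was -0.15 without Matrigel replicate 3. Rps15 stood at 764, 653 and 827 CPM in Matrigel and at 801, 1996, 691, 1070 and 556 CPM in collagen, and its log2 fold change was -0.06 without collagen replicate 2. A missed threshold does not show that the cultures had equal levels.

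Between KPC and KC organoids of the same batch, few members passed the test: 2 of 76 rose and 0 fell (9.58% of tested genes higher, 10.4% lower). The median log2 fold change was 0.12, beside a median SE of 0.302 from the fit of all groups, 2D included. Values lay above 0 for 66 members, or for 58 with the size factors of DESeq2. Rplp0 stood at 1651, 1509 and 1524 CPM in KPC and at 1045, 1027 and 973 CPM in KC (0.62, SE 0.192, adjusted p = 0.0283, edgeR). Rps2 stood at 1302, 1293 and 1328 CPM against 1054, 1039 and 880 CPM (0.40, adjusted p = 0.0872), and its call was lost whichever of the 6 libraries was left out. The groups did not overlap for either. The count depended on which libraries set the spread. In a fit of the 6 libraries alone 23 members rose (16.9% of tested genes higher). Without the 2D libraries 11 rose (13.5% higher), and with 2D as 2 groups 13 rose (14.5% higher). In the fit of all groups, leaving out single libraries left between 0 and 3 (6.47% to 7.34% of tested genes higher). Without KC replicate 3 or KPC replicate 1 the call of Rplp0 was lost. With library size alone as the scaling, the median of all genes was 0.13 and that of members 0.25. Cycling markers summed to between 372 and 403 CPM in KPC and to between 242 and 281 CPM in KC, and their part was not tested.

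The batches differed gene by gene. KC collagen organoids at day 13 had 8 members higher and 25 lower in batch 2 than in batch 1 (19.3% of tested genes higher, 18.1% lower), with a median log2 fold change of -0.19. Without the 2D libraries in the fit, 18 were higher and 33 lower (22.2% and 22.6% of tested genes). With 2D as 2 groups, 19 were higher and 35 lower (22.6% and 23.8%). Rps6 stood at 37.1, 53 and 46 CPM in batch 2 and at 281, 213, 231, 187 and 211 CPM in batch 1 (-2.31, SE 0.169, adjusted p = 4.82e-10, edgeR). In KPC organoids, also of batch 2, it stood at 42.8, 40.7 and 43.8 CPM. Rps4x, encoded on the X chromosome, stood at 995, 761 and 854 CPM against 2957, 3131, 3193, 1852 and 2292 CPM (-1.63, adjusted p = 1.51e-07), and at 1084, 848 and 967 CPM in KPC. Rpl35 and Rpl35a followed, with log2 fold changes of -2.02 and -1.82.

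Rps10 was higher in batch 2, at 512, 540 and 483 CPM against 288, 284, 257, 247 and 211 CPM (0.99, adjusted p = 0.00728), and Rplp1 and Rps20 rose by 0.80 and 0.64. Over the whole series, all 6 libraries of batch 2 lay below all 17 of batch 1 for 22 members, among them Rps6, Rps4x, Rpl35, Rpl35a, Rpl10 and Rps27a, where 3.75% of tested genes did so. The reverse held for 0 members and 5.42% of tested genes. Batch 2 held day 13 collagen cultures only, so in this count over the series the batch and the culture cannot be told apart, whereas the comparison of KC organoids at day 13 matches them. With the length trend removed, 18 members were higher and 21 lower (19% and 15.7% of tested genes), and the median was -0.02.

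**Figure D5:**
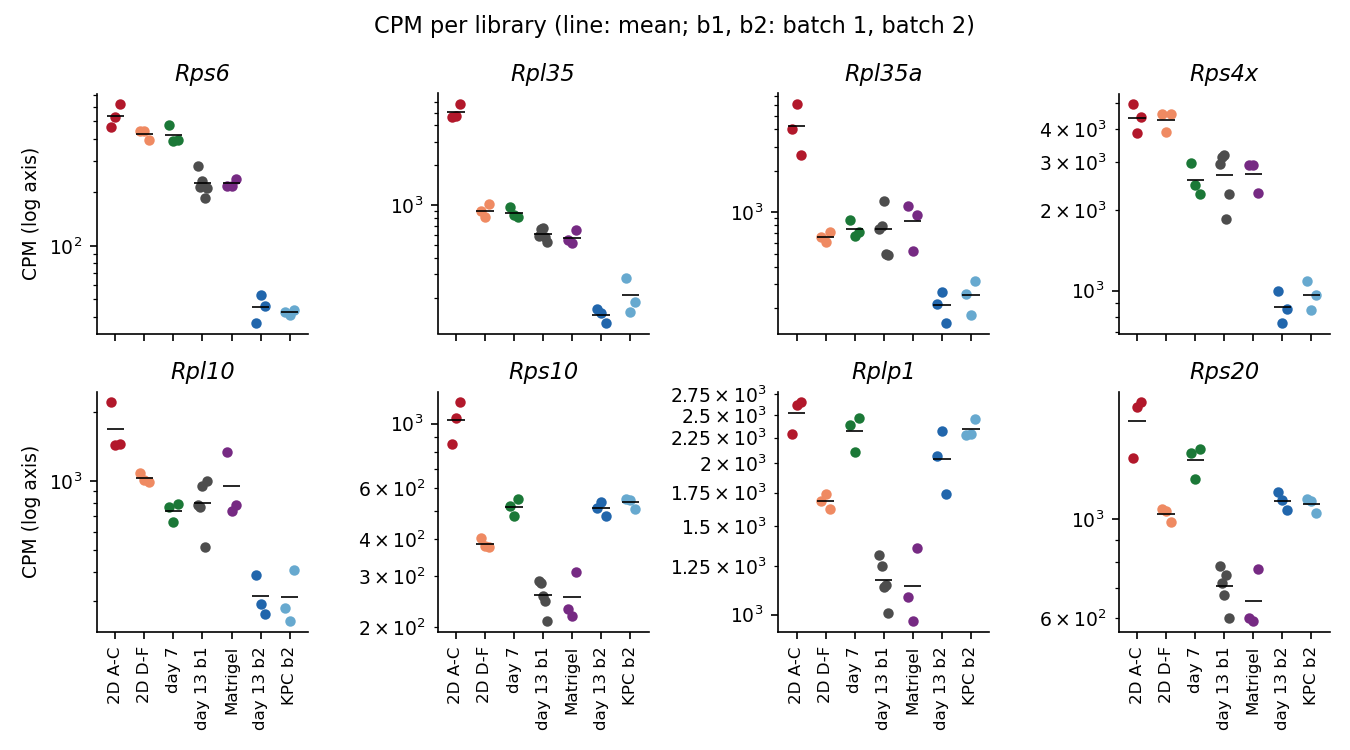
CPM (log axis) of 8 members in every library, with a line at each mean; b1 and b2 are batch 1 and batch 2. Rps6, Rpl35, Rpl35a, Rps4x and Rpl10 are lower in all 6 libraries of batch 2 than in all 17 of batch 1, and Rps10, Rplp1 and Rps20 are higher in KC of batch 2 than in KC of the same day in batch 1.

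Other lists of the translation machinery were read by the same fit, and comparisons with day 13 of batch 1 share those 5 libraries. The shares of all tested genes given above, higher and lower, are the background of these counts: 28.1% and 27.1% for day 7, 9.58% and 10.4% for KPC, 19.3% and 18.1% for batch 2, 26.3% and 23.3% for 2D against day 13, 26.4% and 24.8% for 2D against day 7, and 6.62% and 6.29% for Matrigel. Ribosome assembly factors (36 tested) had 32 higher and 0 lower at day 7 than at day 13, with a median log2 fold change of 0.98, 18 higher and 0 lower in KPC (0.57), 5 higher and 13 lower in batch 2 (-0.20), 26 higher and 0 lower in 2D than at day 13 (0.50), 2 higher and 25 lower in 2D than at day 7 (-0.47), and 1 higher in Matrigel. Nhp2, of the box H/ACA particles, stood at 566 ± 37.9 CPM (SD, n = 3) at day 7 and at 158 ± 21.8 (n = 5) at day 13 (1.84, SE 0.122), and Rrp12 at 20.1 ± 1.1 against 5.44 ± 2.09 CPM. In KPC, Polr1a, the large subunit of RNA polymerase I, was higher by 1.54 and Nop2 by 1.19. In batch 2 Fbl, the methyltransferase fibrillarin, had a log2 fold change of -1.23.

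Mitochondrial ribosomal protein genes (77 tested), which serve the ribosome of mitochondria, had 51 higher and 1 lower at day 7, 22 higher and 0 lower in KPC, 2 higher and 21 lower in batch 2, 67 higher and 0 lower in 2D than at day 13, 16 higher and 15 lower in 2D than at day 7, and 0 higher and 3 lower in Matrigel. Translation factors (23) had 17 higher and 1 lower at day 7, 2 and 1 in KPC, 7 and 7 in batch 2, 11 and 1 in 2D against day 13, 3 and 14 in 2D against day 7, and 0 and 1 in Matrigel. Eif4a2 was higher in 2D than at day 7 by 2.18. Other terminal oligopyrimidine transcripts (28) include non-coding RNAs such as Zfas1 and Snhg6. These transcripts had 18 and 0, 2 and 0, 2 and 4, 26 and 0, 11 and 5, and 2 and 0 in the same order. Among them Zfas1 was higher in 2D than at day 7 by 3.05, Snhg6 in 2D than at day 13 by 2.05, Hnrnpa1 in Matrigel by 0.71, and Btf3 in batch 2 had a log2 fold change of -2.07.

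Regulators of terminal oligopyrimidine mRNAs and of ribosome number (22) had 8 higher and 6 lower at day 7, 4 and 0 in KPC, and 3 and 6 in batch 2. They had 5 and 4 in 2D against day 13, 8 and 8 in 2D against day 7, and 3 and 1 in Matrigel. Mycn, a Myc family factor, was counted at 46, 35 and 27 in Matrigel, 12, 10, 12, 5 and 1 in collagen at day 13, and 2, 1 and 1 at day 7. Tsc1, an inhibitor of mTOR signalling, was higher in Matrigel by 0.91.

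Ribosomal protein genes outside the symbol rule, of which 9 were tested, had 6 higher and 0 lower at day 7, 1 and 0 in KPC, 2 and 3 in batch 2, 8 and 0 in 2D against day 13, 3 and 0 in 2D against day 7, and 0 and 0 in Matrigel. Rpl22l1, the paralog of Rpl22, was higher in 2D than at day 13 by 1.92, at 2096 to 2219 CPM in 14A to 14C, 520 to 587 CPM in 14D to 14F and 275 to 404 CPM at day 13. Rps4l, named for its likeness to Rps4x, was counted at 41, 50 and 58 in the KPC libraries and at no more than 3 in each of the other 20 libraries. Against a floor of 3 counts over the 3 batch 2 KC libraries, its level in KPC was at least 43-fold higher.

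These lists, too, differed with the set of 2D libraries. Against day 13, the shares of all tested genes higher and lower were 26.8% and 28.1% with 14A to 14C, and 18.9% and 20.3% with 14D to 14F. Against day 7 they were 28.3% and 29.1%, and 23.9% and 22.4%. Against day 13, mitochondrial ribosomal protein genes had 65 higher and 2 lower with 14A to 14C and 37 and 0 with 14D to 14F, while assembly factors had 19 and 1, and 27 and 0. Against day 7, mitochondrial ribosomal protein genes had 37 higher and 10 lower with 14A to 14C and 7 and 25 with 14D to 14F, and assembly factors 5 and 26, and 1 and 22. Zfas1 stood at 940 to 1276 CPM in 14A to 14C, at 123 to 137 CPM in 14D to 14F and at 69.6 to 80.6 CPM at day 7. Snhg6 stood at 181 to 281 CPM, 40.8 to 48.9 CPM and, at day 13, 24.9 to 37.3 CPM. Eif4a2 stood at 294 to 316 CPM, 116 to 131 CPM and, at day 7, 41.8 to 49.5 CPM.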

How the data were processed

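The authors prepared 3' libraries with UMIs from polyadenylated RNA, mapped them to GRCm38, and made the UMI table by means of Drop-seq software and GENCODE gene definitions. The deposited values are raw counts of 27207 genes in 23 libraries, without normalization; handling of strand and of reads that match several genes is not given in the sources used here. Groups came from the labels. Counts were tested in R 4.3.3 with edgeR 4.0.16 (TMM, filterByExpr, 11144 genes, quasi-likelihood F-test, all 6 groups in 1 fit, Benjamini-Hochberg adjusted p under 0.1). CPM used TMM factors, and log2 CPM a prior count of 2. DESeq2 1.42.0 and other scalings, filters and sample sets were alternatives. Transcript lengths came from GENCODE annotation and promoters from RefSeq. A gene's length was that of its principal transcript, the longest where several ranked equally. Scripts were tested on simulated data. The members and lists (assembly factors, mitochondrial ribosomal proteins, translation factors, oligopyrimidine transcripts, regulators, other ribosomal proteins) were chosen knowing earlier results of these data. Named genes were the 3 highest and 3 lowest called members per comparison, members fixed by role, the 5 largest and 5 smallest shares, and at most 4 called companion genes per comparison. Some genes that this rule names are not reported here.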

Additional observations from a re-analysis of the deposited data

Results flagged for a closer look

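Values of 42 members or shares were examined for a library far from the rest in the 2D and the batch 1 day 13 collagen groups, 84 in all, and 6 stood apart. Chance flags about 1 in 20. The 2D libraries were taken as 1 group here. The list does not cover all members: Rps13 stood at 1472.5 CPM in day 13 replicate 4, with the others between 485 and 608 CPM. In 2D replicate 1, Rpl31 stood at 3258 CPM with the others between 721 and 1613, and Rpl24 at 39.7 CPM with the others between 15.3 and 21.3. At day 13, Rpl31 stood at 746 CPM in replicate 5 (others 559 to 596), Rps27a at 1350 CPM in replicate 4 (453 to 672), Rpl7a at 507.7 CPM in replicate 1 (415 to 440) and Rpl38 at 1711 CPM in replicate 3 (578 to 794).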

How the results depend on the processing

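Of 295 recalculations of the counts of called members and of group shares, 244 stayed within the margin (1.5 times a count, 1 SD of a share). Leaving out single libraries gave, for members higher, between 72 and 74 (2D against day 13), 32 and 48 (2D against day 7), and 36 and 42 (day 7 against day 13). They were between 5 and 9 (batch 2), 0 and 3 (KPC) and 0 and 0 (Matrigel). Members lower, in that order, were 0 and 0, 3 and 4, 0 and 1, 18 and 25, 0 and 0, and 0 and 0. All tested genes higher, in that order, were 23 to 25.8%, 20 to 27%, 23.6 to 27.2%, 15.3 to 20.8%, 6.47 to 7.34% and 4.09 to 6.79%. All tested genes lower were 21.2 to 25.4%, 20.2 to 26.1%, 23.7 to 27%, 12 to 18.2%, 7.84 to 8.3% and 3.8 to 6.04%. Shares of counts on members ranged between 16.0 and 18.1% (2D), 8.3 and 8.84% (day 13 batch 1), and 6.32 and 6.71% (batch 2). They ranged between 11.1 and 11.6% (day 7), 7.84 and 8.27% (KPC) and 8.36 and 9.29% (Matrigel). Without mitochondrially encoded genes in the total they were 6.96% in batch 2 KC and 8.53% in KPC. Shares of all tested genes called under the same setting follow in brackets. For Matrigel, members higher and lower were 1 and 2 without a filter (3.18% and 2.02%) and 0 and 1 by DESeq2 (4.98% and 4.86%). They were 1 and 0 with the compared groups alone (9.41% and 8.16%). Without the 2D libraries they were 1 and 1 (9.84% and 9.8%), and with 2D as 2 groups 1 and 1 (10.1% and 11.3%). For KPC, members higher were 1 with DESeq2 size factors (8.83%), 6 with library size alone (11.4%) and 6 without a filter (3.97%). They were 1 at a threshold of 0.05 (6.75%) and 23 with the compared groups alone (16.9%). Without 2D they were 11 (13.5%), and with 2D as 2 groups 13 (14.5%). For day 7 against day 13, members lower were 3 without a filter (13.4%), 0 at 0.05 (23.9%) and 2 with the groups alone (29.6%). They were 2 without 2D (31%) and 3 with the length trend removed (27.8%). For batch 2, members higher were 13 without a filter (8.77%), 5 at 0.05 (16.4%) and 20 with the groups alone (23.5%). They were 18 without 2D (22.2%), 19 with 2D as 2 groups (22.6%) and 18 with the length trend removed (19%). For 2D against day 7, members lower were 9 with library size alone (29.8%) and 12 with the length trend removed (24.5%). With 14D to 14F only, 13 were higher and 19 lower (23.9% and 22.4%). With 2D as 2 groups, 14D to 14F again stood for 2D, and 13 were higher and 21 lower (22.9% and 23.6%). These are 2 fits of the same 2D libraries against day 7. There, log2 fold changes turned for Rps27a (-0.33 and -0.35), Rps3 (-0.049 and -0.072), Rpl41 (-0.043 and -0.064) and Rps25 (-0.17 and -0.19); without single libraries Rpl31 in Matrigel ran from -0.15, without Matrigel replicate 3, to 0.86. Fits without 2D, with 2D as 2 groups, with the length trend removed and without day 13 replicates 4 and 5 were chosen after seeing the data. The replicate numbers did not pair the libraries: same-numbered libraries correlated between -0.12 and 0.19 in their deviations from group means, and 1 of 20 pairs exceeded 0.1. With the replicate block, members lower were 3 for Matrigel (6.09% of tested genes), 4 for day 7 (26.7%) and 40 for batch 2 (21.4%). Members higher were then 5 for KPC (10.6%) and 5 for batch 2 (21.7%). In 2D the replicate numbers follow the sets 14A to 14C and 14D to 14F. The block therefore carries the difference between these sets into comparisons without 2D. Median log2 fold changes of members with the block were -0.27 for Matrigel and -0.42 for batch 2. With library size alone the median of all genes stood at 0.13 (KPC), -0.18 (batch 2), -0.14 (2D against day 7) and -0.20 (2D against day 13), and with TMM at 0.011, -0.046, 0.022 and 0.007. The cause of these differences was not tested.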
